A study of Mus musculus with 7 samples.

Results

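The subject is 35 interferon response genes of the mouse, a chosen set of genes induced by type I or type II interferon that leaves out antigen presentation. They were found by symbol among the 46671 genes of a deposited table, where each of the 35 symbols had 1 row. By role they comprise 5 signalling and transcription regulators, 18 antiviral effectors, 10 interferon-inducible GTPases and 2 chemokines. RNA had been sequenced from epithelium labelled as colorectal, of BALB/C mice aged 8 weeks kept free of specific pathogens. The control group (Ctrl) held 3 wild-type libraries, and the knockout group (cKO) held 4 libraries from mice in which the gene of the kinase MST3, Stk24, had been knocked out in intestinal epithelial cells. The promoter that drives the deletion is not given in the sources used here, and no label says which mouse gave which library. The p-values therefore reflect only how far these libraries scatter, which may be technical. The series' design text names the carcinogen AOM and the colitis agent DSS, whereas the treatment label of all 7 libraries states that no drug was used, and both groups share that label.

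Interferons are secreted proteins that warn cells of infection. Type I interferons, and type III interferons at epithelial surfaces, act through receptor-bound kinases on a transcription factor complex that includes STAT2 and IRF9 and binds the interferon-stimulated response element (ISRE) in the promoters of antiviral genes. Type II interferon, or interferon gamma, is made mainly by T cells and natural killer cells and leads to transcription from gamma-activated sites (GAS), and IRF1 carries that signal on to further ISRE-bearing genes such as those of the guanylate-binding proteins.

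The members share letters of these elements in their promoters, which the choice of members did not use. RefSeq promoter windows on GRCm38.p6 were matched for 24 members, and the 250 bases before the start were searched on both strands for the ISRE core (GAAA, any 2 bases, GAAA) and for the GAS pattern TTCNNNGAA. The ISRE core was found in 17 of the 24 (70.8%), against 936 of 27025 genes in the whole table (3.46%). All 7 GTPase genes with a window held it, as did 8 of 12 antiviral effectors. The GAS pattern was found in 8 of 24 members (33.3%), against 8.13% of all genes, and 6 members held both. A match describes letters only. The sequences below are read 5′ to 3′ in the direction of the gene, with the match in capitals, and are shown because their genes carry the values that follow. TTTC at the start of a match marks the core on the opposite strand.
Isg15, chr4:156200861-156200910, minus strand: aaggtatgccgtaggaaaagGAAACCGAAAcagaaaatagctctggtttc
Ifit1, chr19:34640765-34640814, plus strand: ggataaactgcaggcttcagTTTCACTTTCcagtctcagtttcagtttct
Ifit3, chr19:34583353-34583402, plus strand: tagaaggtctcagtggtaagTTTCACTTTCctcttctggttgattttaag
Ifit3b, chr19:34607749-34607798, plus strand: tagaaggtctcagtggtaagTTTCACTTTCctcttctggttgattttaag
Oas1a, chr5:120907526-120907559, minus strand: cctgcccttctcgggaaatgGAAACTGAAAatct
Rsad2, chr12:26456543-26456592, minus strand: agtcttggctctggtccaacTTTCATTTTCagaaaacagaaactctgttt
Bst2, chr8:71537567-71537616, minus strand: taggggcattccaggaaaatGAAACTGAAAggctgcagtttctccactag
Igtp, chr11:58199502-58199551, plus strand: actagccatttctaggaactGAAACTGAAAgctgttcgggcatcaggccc
Irgm2, chr11:58214893-58214942, plus strand: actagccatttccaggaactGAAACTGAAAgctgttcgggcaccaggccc
Gbp7, chr3:142530263-142530312, plus strand: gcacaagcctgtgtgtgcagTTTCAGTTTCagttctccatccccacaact
Irf1, GAS pattern, chr11:53769904-53769952, plus strand: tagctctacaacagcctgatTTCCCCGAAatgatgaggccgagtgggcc

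The stretches of Ifit3 and Ifit3b are the same, and those of Igtp and Irgm2 are nearly so. Isg15, Ifit1, Ifit3, Ifit3b, Oas1a and Bst2 each held further copies of the core in the same window, and in total 8 members had more than 1. In Bst2 the other copy of the core, just upstream of the one marked, overlapped a GAS match. No match was found in the windows of Oasl2, Xaf1, Irf7, Ifi44 and Cxcl9.

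Many members lie side by side in families. By the gene positions of the deposited table, which are on GRCm39, Ifit2, Ifit3, Ifit3b and Ifit1 lie between 34527961 and 34627409 on chromosome 19, all on the plus strand. Oas2, Oas3 and Oas1a lie on the minus strand of chromosome 5 between 120868398 and 121045605. Gbp5, Gbp7, Gbp3 and Gbp2 lie on the plus strand of chromosome 3 between 142202695 and 142343769, while Gbp4 and Gbp6 lie on the minus strand of chromosome 5. Igtp and Irgm2 are neighbours on chromosome 11, from 58090382 to 58113609. Isg15 is on the minus strand of chromosome 4, from 156283881 to 156285275.

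Reads assigned to genes, recovered from the deposited FPKM values (reads scaled to gene length and library total), ranged from 14659708 to 19659622 per library. A gene of 1 kb with 3 reads stood at 0.155 to 0.216 FPKM, below which values are mostly counting error. Stk24, the targeted gene, fell: Ctrl libraries averaged 19.9 ± 0.926 FPKM (SD, n = 3) and cKO libraries 3.34 ± 0.435 FPKM (SD, n = 4; limma adjusted p = 0.00043). Epithelial markers were abundant (Epcam at 689 to 987 FPKM), but the regional markers went against the colorectal label: the small intestinal disaccharidase gene Sis stood at 413 to 823 FPKM, whereas the distal colon factors Hoxd13 and Prdx6b were listed at 0 in all 7 libraries and Car1 reached at most 0.0705 FPKM. The summed level of 23 T cell and innate lymphoid markers ran from 776 to 1916 FPKM in Ctrl and from 500.05 to 1244 FPKM in cKO, with none of the 23 at 0 in all libraries. The largest parts of that sum were Gzma, at 182 to 696 FPKM, and Ccl5, at 153 to 571 FPKM. Ccl5 is itself among the other interferon-induced genes listed here, and 19 of the 23 were high enough to be tested.

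The first question was whether loss of Stk24 moved the interferon response genes. No member was called higher or lower in cKO. Isg15, which encodes a ubiquitin-like protein attached to other proteins, came closest, where the 3 Ctrl libraries averaged 61.3 ± 14.7 FPKM (SD) and the 4 cKO libraries 42.2 ± 11.9 FPKM. Irf7, the transcription factor that amplifies type I interferon production, stood at 85.2 ± 16.3 and 67.4 ± 17.6 FPKM. Iigp1, a GTPase of the host defence against intracellular parasites, lay the other way at 0.461 ± 0.316 and 0.778 ± 0.288 FPKM. The members that differed least included Stat2, at 15.5 ± 0.960 and 15.6 ± 3.03 FPKM, and Oas3, at 16.96 ± 3.66 and 17.5 ± 6.05 FPKM.

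Of the 35 members, 33 averaged 0.5 FPKM or more over the libraries and were tested among 13057 genes with limma, on log2(FPKM + 0.5), 2-sided, with Benjamini-Hochberg adjustment over all genes and a threshold of 0.05. On that scale, folds of weakly expressed genes come out too small. Called members numbered 0, where 0.0306% of all genes tested were called, and 0 members had an unadjusted p under 0.05 in limma, where 8.97% of all genes did. With voom on recovered reads 0 members were called and 1, Isg15, was under 0.05 unadjusted. The lowest adjusted p among members in limma was 0.573. For 0 members did the libraries of the groups separate without overlap, against 10.1% of all genes tested. The difference was below 0 for 21 of 33 members, against 51.3% of all genes, and the median log2 difference was -0.070 over the members and -0.0077 over all genes. Scaling to a common sum moved these medians to 0.0027 and 0.070. The count of 21 became 16 with that scaling, and it also turned on single libraries. It was 11 without cKO replicate 1, where the median became 0.10, and 26 without Ctrl replicate 2, where the median was -0.32. Members without overlap numbered 4 without Ctrl replicate 2 (Irf7, Irf1, Isg15 and Ifi27l2a), and 1 each without Ctrl replicate 1 (Iigp1), cKO replicate 1 (Gbp7) and cKO replicate 2 (Mx2), with none called. The 95% intervals of all 33 members included 0. They lay within 1 log2 unit on both sides for 21 members, and reached below -1 for 9 and above 1 for 4.

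**Figure D1:**
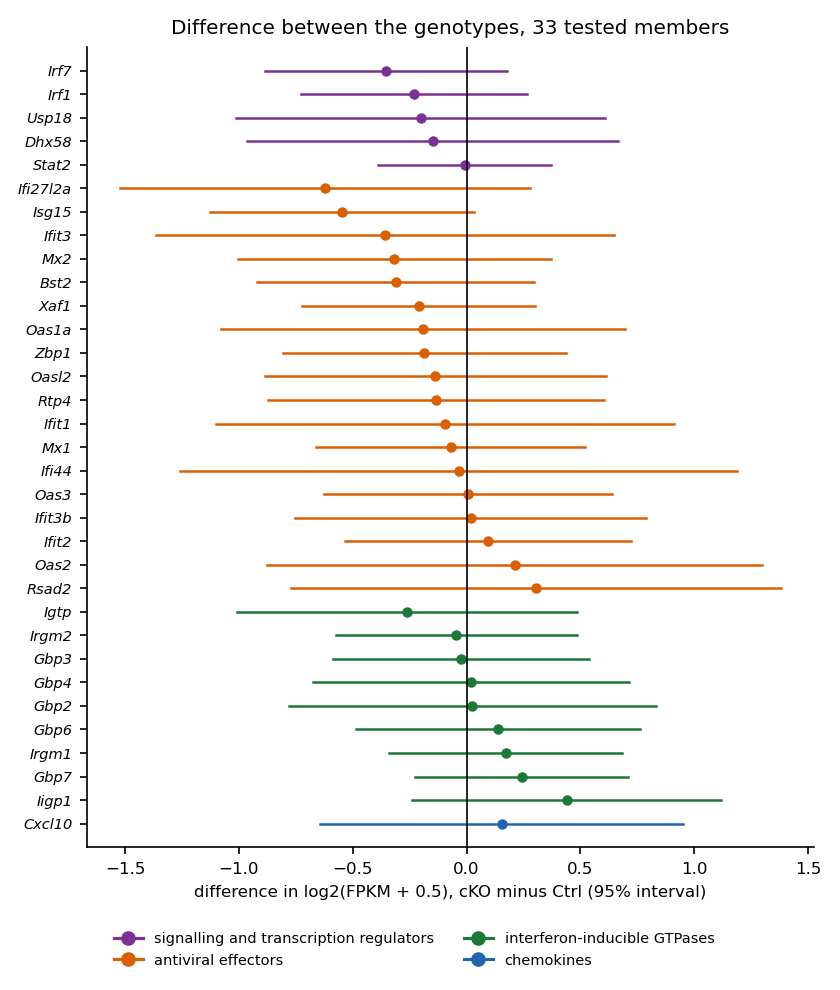
Difference between cKO and Ctrl in log2(FPKM + 0.5) for the 33 tested members (points) with 95% intervals from limma (lines), coloured by role and ordered by size within a role. Every interval crosses 0, the 5 regulators all have points below 0, and the widest interval is that of Ifi44.

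Among the 5 signalling and transcription regulators, all differences were below 0 with a median of -0.20, and none passed. Without cKO replicate 1 that median was 0.088. Irf7 stood at 96.6, 66.6 and 92.4 FPKM in Ctrl replicates 1 to 3 and at 48.4, 80.01, 56.6 and 84.4 FPKM in cKO replicates 1 to 4. Ctrl replicate 2 lay below cKO replicates 2 and 4, so the groups overlapped (log2 difference -0.36, SE 0.23, limma adjusted p = 0.674). Irf1, a transcription factor induced by interferon gamma and the regulator whose window held the GAS pattern, stood at 80.8, 47.5 and 77.4 FPKM in Ctrl and at 63.1, 47.3, 51.9 and 67.2 FPKM in cKO. Only the low value of Ctrl replicate 2 made these groups overlap, and without that library the log2 difference of Irf1 went from -0.23 to -0.47. Usp18, a protease that removes ISG15 and damps type I interferon signalling, stood at 15.6, 12.4 and 18.4 FPKM in Ctrl and at 7.02, 15.4, 11.9 and 23.3 FPKM in cKO. The cKO libraries of Usp18 thus held both the lowest and the highest value of the 7. Dhx58, which encodes the RNA sensor LGP2, ranged from 4.49 to 7.23 FPKM in Ctrl and from 2.70 to 7.96 FPKM in cKO. Stat2, a constant partner in the signalling complex, kept the tightest range of all members relative to its level, at 14.8 to 16.6 FPKM in Ctrl and 11.3 to 18.4 FPKM in cKO.

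The 18 antiviral effectors were all tested, with 13 differences below 0, a median of -0.14 and no call. That median was 0.053 without cKO replicate 1 and -0.38 without Ctrl replicate 2. Isg15 stood at 73.5, 44.98 and 65.5 FPKM in Ctrl and at 32.98, 49.9, 31.2 and 54.7 FPKM in cKO. Its Ctrl replicates 1 and 3 exceeded every cKO library, while Ctrl replicate 2 lay below cKO replicates 2 and 4 (log2 difference -0.55, SE 0.25, 95% interval -1.13 to 0.03, limma adjusted p = 0.573). The adjusted p of Isg15 lay between 0.463 and 0.828 over the alternatives. Oasl2, a 2′-5′-oligoadenylate synthetase-like protein of the antiviral RNA response, stood at 53.1, 35.2 and 61.9 FPKM in Ctrl and at 25.7, 57.8, 41.1 and 62.9 FPKM in cKO, a log2 difference of -0.14. Ifit1, which binds viral RNA that lacks host cap marks, stood at 32.6, 18.98 and 46.2 FPKM in Ctrl and at 15.6, 46.3, 21.3 and 43.4 FPKM in cKO. In Ifit1 each group held libraries near 16 to 21 FPKM and libraries above 43 FPKM, and the log2 difference of -0.09 turned to 0.19 without cKO replicate 1 and to 0.20 without Ctrl replicate 3. These differences rested on between 732 and 2061 reads per library, so that counting error was small beside the spread.

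Bst2 encodes tetherin, which holds budding virus particles at the cell surface. It stood at 28.7, 17.2 and 30.1 FPKM in Ctrl and at 15.3, 28.9, 16.8 and 20.3 FPKM in cKO (log2 difference -0.31, SE 0.26), and the difference ran from -0.17 without Ctrl replicate 3 to -0.56 without Ctrl replicate 2. Ifit3, a partner of IFIT1, stood at 4.94, 5.71 and 3.83 FPKM in Ctrl and at 1.28, 7.26, 3.65 and 4.48 FPKM in cKO, so that cKO replicates 1 and 2 marked both ends of the range. Its log2 difference was -0.36 and became 0.044 without cKO replicate 1. Ifit3b, at 0.429 to 1.46 FPKM, has a coding sequence that is 99.1% identical to that of Ifit3, so the division of reads between the pair is uncertain. Rsad2, which encodes the radical SAM enzyme viperin, stood at 1.52, 2.06 and 2.84 FPKM in Ctrl and at 1.22, 5.20, 1.46 and 4.94 FPKM in cKO, with cKO replicates 2 and 4 above all others. Oas2, an oligoadenylate synthetase that activates RNase L, stood at 1.36, 1.17 and 2.13 FPKM in Ctrl and at 0.787, 5.26, 1.22 and 1.81 FPKM in cKO. The value of cKO replicate 2 set the direction of Oas2, whose log2 difference went from 0.21 to -0.22 without that library.

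Ifi27l2a, a small mitochondrial protein gene, had the largest absolute difference of the members. It stood at 3.62, 1.42 and 5.18 FPKM in Ctrl and at 1.02, 2.82, 1.79 and 1.95 FPKM in cKO (log2 difference -0.62, SE 0.39, limma adjusted p = 0.668), on 16 to 74 reads per library. The difference of Ifi27l2a was -1.07 without Ctrl replicate 2 and -0.28 without Ctrl replicate 3. Ifi27l2a lies on the minus strand of chromosome 12 from 103400132 to 103409939. That span encloses Ifi27, on the plus strand from 103400448 to 103406504. The sources used here give no strand setting, so the division of reads between Ifi27l2a and Ifi27 is uncertain. Xaf1, a pro-apoptotic zinc finger protein, stood at 3.48, 3.20 and 3.83 FPKM in Ctrl and at 1.97, 4.32, 2.60 and 3.36 FPKM in cKO, a log2 difference of -0.21 that was -0.047 without cKO replicate 1 and -0.37 without cKO replicate 2. Mx2, a dynamin-like GTPase whose gene, like Mx1, is defective in most laboratory strains, stood at 1.72, 1.62 and 2.32 FPKM in Ctrl and at 0.883, 2.82, 1.19 and 1.19 FPKM in cKO. Without cKO replicate 2 the Mx2 libraries of the groups no longer overlapped, with a log2 difference that remained uncalled. Mx1 ranged from 1.76 to 3.78 FPKM and was the only member with its highest cKO value in replicate 3. That library held the lowest cKO value of 4 of the 18 effectors and of 28% of all genes. Of the effectors not yet given, Oas1a ranged from 16.2 to 40.6 FPKM over the 7 libraries, Zbp1 from 13.5 to 26.02, Oas3 from 11.5 to 24.5, Rtp4 from 5.98 to 13.9, Ifi44 from 1.17 to 6.34 and Ifit2 from 0.505 to 1.37 FPKM. Oas1a shares 96.7% of its coding bases with Oas1g, which makes its single values uncertain in the same way.

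**Figure D2:**
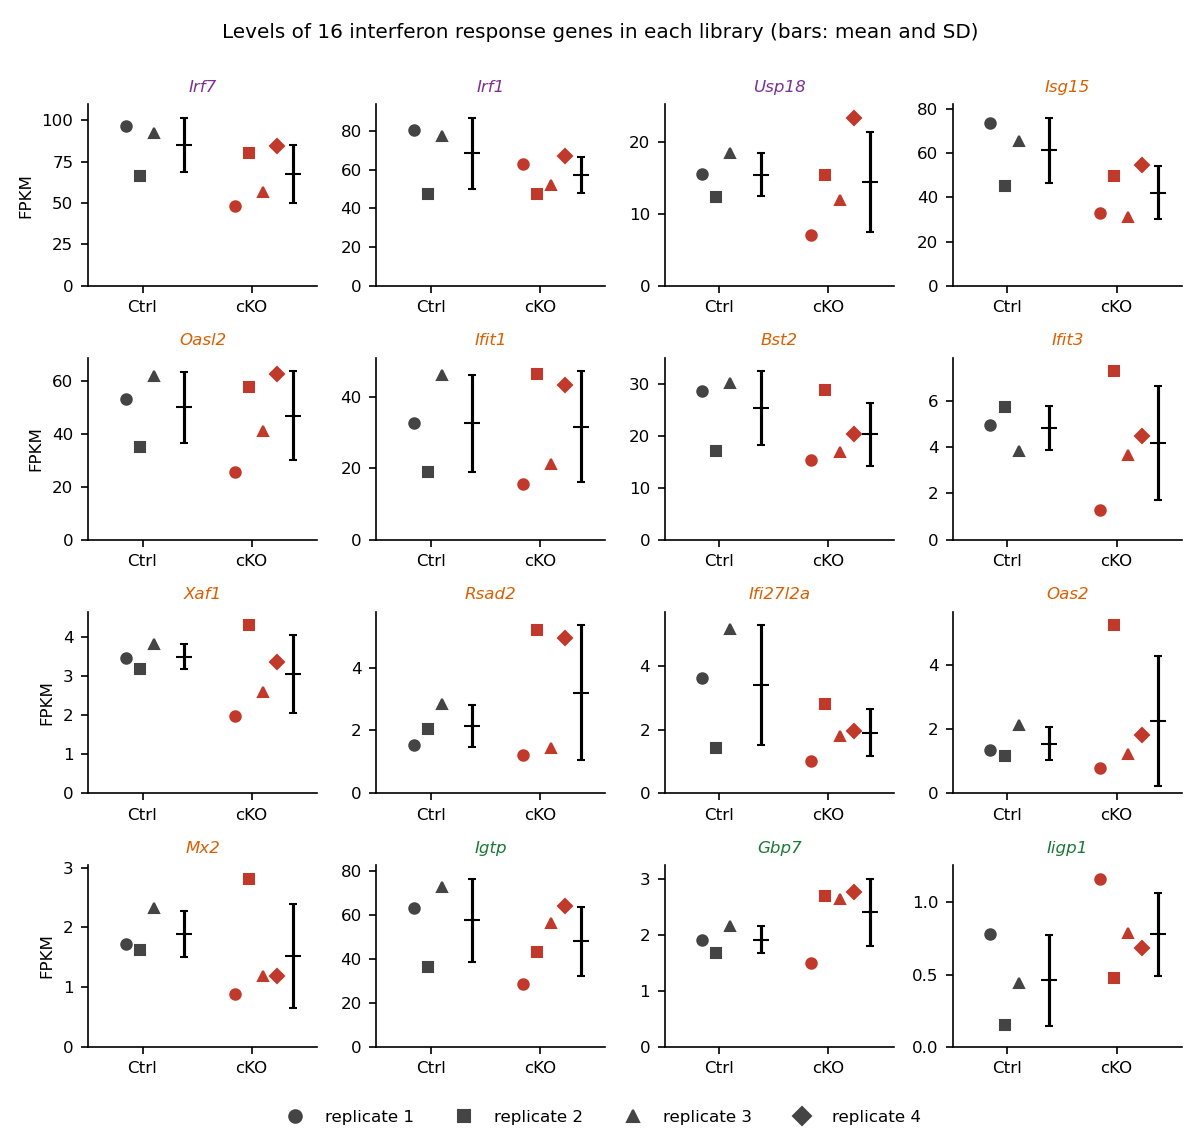
FPKM of 16 members in each library (grey Ctrl, red cKO, marker shape for the replicate number, horizontal tick and bar for mean and SD). The groups overlap in all 16 panels, and in 9 of them (Usp18, Ifit1, Ifit3, Rsad2, Oasl2, Oas2, Mx2, Xaf1 and Gbp7) the cKO libraries hold both the lowest and the highest value.

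The GTPases divide into immunity-related GTPases (Igtp, Irgm1, Irgm2, Iigp1) and guanylate-binding proteins (Gbp2 to Gbp7), families of the host defence against intracellular microbes. Of 10 genes 9 were tested, with 6 differences above 0, 3 below, a median of 0.026 and no call; with voom on recovered reads the median was -0.016. It was 0.27 without Ctrl replicate 1 and -0.16 without Ctrl replicate 2. Igtp stood at 63.2, 36.1 and 72.7 FPKM in Ctrl and at 28.5, 43.04, 56.1 and 63.8 FPKM in cKO, a log2 difference of -0.26 that was -0.56 without Ctrl replicate 2 and -0.036 without cKO replicate 1. Irgm1 and Irgm2 followed at 12.99 to 25.4 and 13.2 to 24.3 FPKM over the 7 libraries, lowest in Ctrl replicate 2 for both. Iigp1 stood at 0.784, 0.154 and 0.444 FPKM in Ctrl and at 1.16, 0.477, 0.791 and 0.681 FPKM in cKO, on only 9 to 72 reads (log2 difference 0.44, SE 0.29, limma adjusted p = 0.685). The difference of Iigp1 was 0.68 without Ctrl replicate 1 and 0.19 without Ctrl replicate 2. Iigp1 was the member with the largest difference above 0, and the only GTPase whose highest cKO value was in replicate 1. Gbp7 stood at 1.92, 1.67 and 2.165 FPKM in Ctrl and at 1.502, 2.70, 2.65 and 2.77 FPKM in cKO. Its cKO replicates 2, 3 and 4 exceeded every Ctrl library, and without cKO replicate 1 its log2 difference rose from 0.24 to 0.41 without being called. The other guanylate-binding protein genes were low, with Gbp2 at 1.21 to 4.55 FPKM, Gbp6 at 0.638 to 1.75, Gbp3 at 0.585 to 1.35, Gbp4 at 0.589 to 1.57 and Gbp5 at 0.205 to 0.951 FPKM. Gbp6 is 98.4% identical to Gbp10 in its coding bases. Gbp5 lay below the level for testing (exact 2-sided permutation p = 0.514).

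The chemokines that attract T cells through CXCR3 were barely present. Cxcl10 stood at 1.497, 0.703 and 0.673 FPKM in Ctrl and at 0.869, 2.32, 0.876 and 0.653 FPKM in cKO, on 10 to 43 reads. Cxcl9 was read 2 to 26 times per library, at 0.0425 to 0.461 FPKM in Ctrl and 0.184 to 0.329 FPKM in cKO (exact 2-sided permutation p = 0.400). The smallest p that 3 against 4 libraries allow in this test is 0.0571.

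The second question was how far the members differed between libraries of the same genotype. The standard deviation within a genotype, on the log2 scale, was above the median of all genes tested (0.230) in 33 of 33 members, where by construction 50% of all genes are, although Stat2 at 0.235 passed that line only narrowly. The median over the members was 0.434, a value exceeded by 16.3% of all genes. The most variable were Ifi44 at 0.864, Oas2 at 0.758, Rsad2 at 0.755, Ifit1 at 0.712 and Ifit3 at 0.709. By role the median was 0.503 for antiviral effectors, 0.393 for GTPases and 0.350 for regulators. Among genes averaging 10 FPKM or more, where counting error is small, the 15 members had a median of 0.426 against 0.204 over 4930 genes, and all 15 lay above that median. Members with the ISRE core had a median spread of 0.463 (16 tested genes) and those with a searched window but without it 0.363 (6 genes), which include the most variable member, Ifi44. For the GAS pattern the order was the opposite, at 0.375 with it and 0.493 without. The lists had been chosen with results of these libraries known, so these shares are a description.

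**Figure D3:**
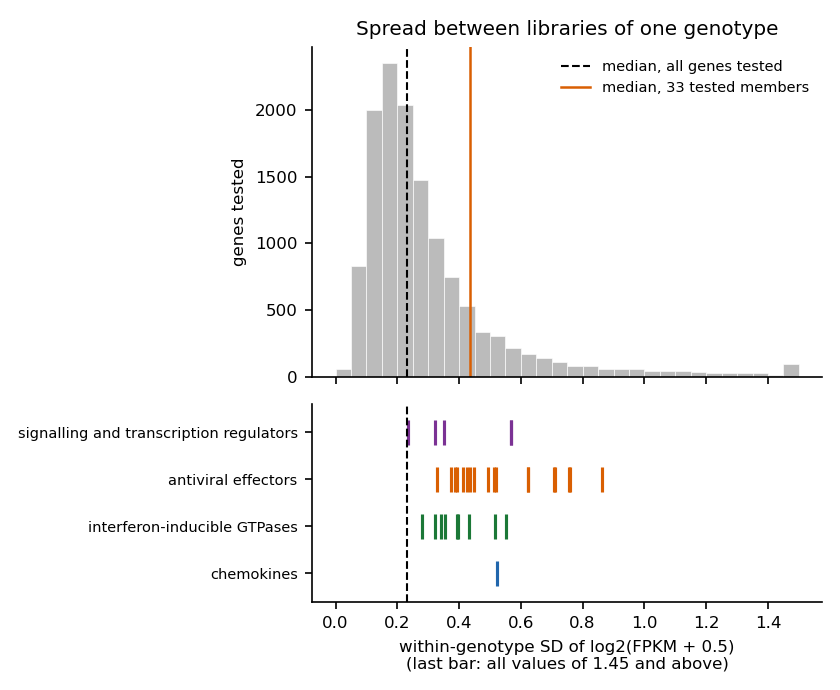
Top, number of genes tested by the standard deviation of log2(FPKM + 0.5) within a genotype (grey bars), with the medians of all genes (0.230, dashed) and of the 33 tested members (0.434, orange). Bottom, each tested member by role as a tick; Stat2 at 0.235 touches the dashed line and the others lie to its right.

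The high and low libraries were largely the same from member to member. Relative to the Ctrl mean, the mean of the 33 members on the log2 scale was 0.19, -0.36 and 0.17 in Ctrl replicates 1 to 3, and -0.55, 0.26, -0.24 and 0.20 in cKO replicates 1 to 4. Each genotype thus held libraries above and below the Ctrl mean, and the distance between cKO replicates 1 and 2 exceeded the distance between the group means. The signs were the same with a common sum (TPM) and with quantile normalization, where cKO replicate 1 stood at -0.44 and -0.52 and cKO replicate 2 at 0.45 and 0.32. Ctrl replicate 2 was the lowest Ctrl library for 27 of 33 members, against 31.8% of all genes, and cKO replicate 1 was the lowest cKO library for 24 of 33, against 24% of all genes. The highest cKO value was in replicate 2 for 15 members and in replicate 4 for 16, against 19.4% and 29.4% of all genes.

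The roles did not move quite alike. Antiviral effectors stood at -0.72, 0.41, -0.42 and 0.16 in cKO replicates 1 to 4, and 12 of the 18 were highest in cKO replicate 2. GTPases stood at -0.20, 0.05, 0.15 and 0.32 in the same libraries, and 7 of the 9 tested were highest in cKO replicate 4. With the chemokines left out, of which only 1 was tested, the roles lay farthest apart in cKO replicate 3. There effectors such as Oas1a (16.2 FPKM) and Isg15 (31.2 FPKM) had their lowest value of the 7 libraries. In the same library Igtp (56.1 FPKM) and Gbp4 (1.26 FPKM) lay in the upper part of their cKO range. The summed FPKM of the 18 effectors was 306, 189 and 321 in Ctrl and 151, 312, 179.9 and 303 in cKO. The sum of the 10 GTPases was 124, 67.9 and 129 in Ctrl and 71.0, 96.7, 105 and 122 in cKO.

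**Figure D4:**
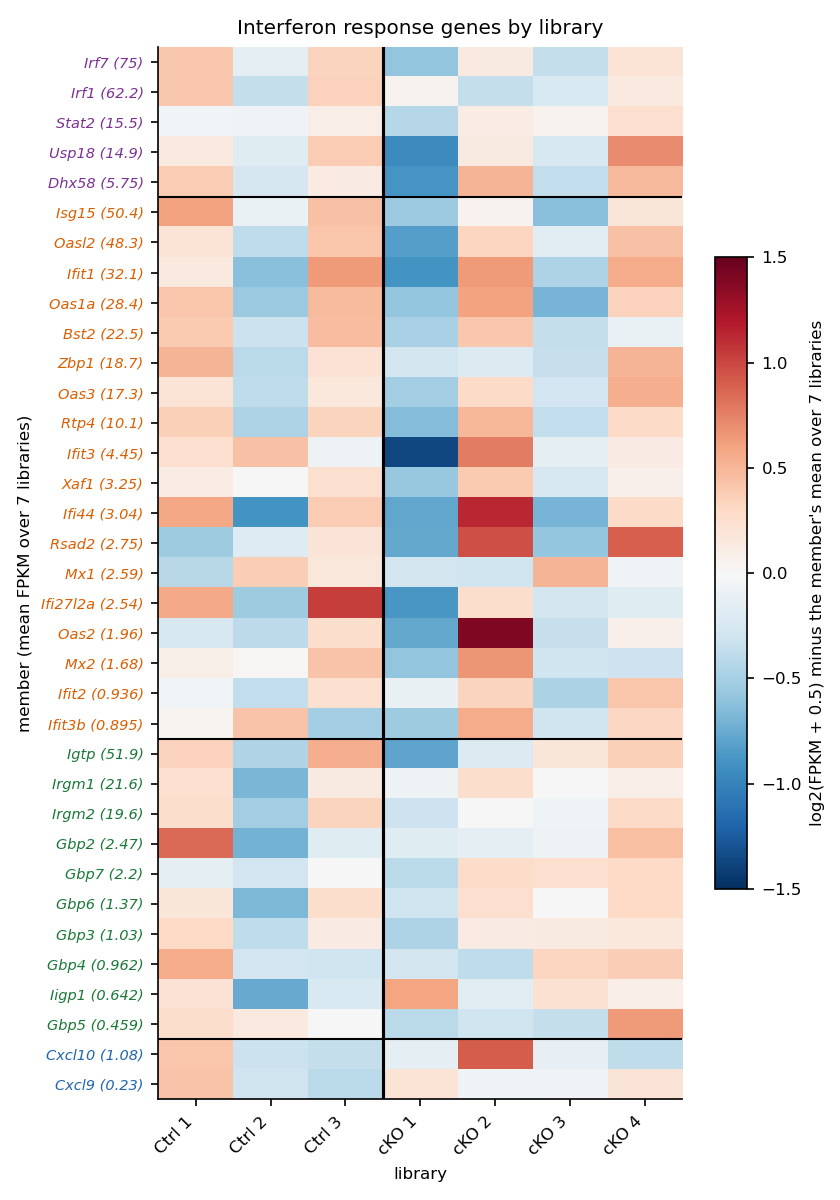
Level of each of the 35 members in each library as log2(FPKM + 0.5) minus the member's mean over the 7 libraries (red above, blue below), grouped by role (label colour and horizontal lines) and ordered by mean FPKM, given in brackets. Ctrl replicate 2 and cKO replicate 1 are blue in most rows, and cKO replicate 2 is reddest among antiviral effectors such as Oas2 and Ifi44.

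In bulk samples fewer cells of a type and less RNA per cell cannot be told apart. Relative to the Ctrl mean, the mean of the 19 tested T cell and innate lymphoid markers was 0.66, -0.31 and -0.36 in Ctrl and -1.155, -0.76, -0.07 and 0.14 in cKO. Cd3e, a chain of the T cell receptor complex, stood at 43.2, 17.9 and 16.1 FPKM in Ctrl and at 10.5, 14.8, 26.7 and 29.6 FPKM in cKO. Both these markers and the GTPases were lowest among cKO libraries in replicate 1 and highest in replicate 4. In cKO replicate 2, by contrast, T cell markers were low while the effectors were at their highest. Among Ctrl libraries the T cell markers and the GTPases were both highest in replicate 1. The GTPases were lowest in Ctrl replicate 2 (-0.48) and stood at 0.12 in Ctrl replicate 3. The T cell markers were low in both, and which was lowest depended on the measure. Their log2 mean was -0.31 in Ctrl replicate 2 and -0.36 in Ctrl replicate 3. Their summed FPKM was 776 in Ctrl replicate 2 and 936 in Ctrl replicate 3. Macrophage and dendritic cell markers (20 listed, 8 tested, none at 0 in every library) summed to 35.3 to 52.2 FPKM in Ctrl and 21.5 to 45.8 FPKM in cKO, with the lowest sum in cKO replicate 2. Among them the myeloid signalling genes Fcer1g and Tyrobp, which lymphoid cells can also express, stood at 6.84 to 24.1 and 4.02 to 12.5 FPKM, and Lyz2, Itgax and Cd14 reached 5.80, 4.62 and 4.44 FPKM. The macrophage marker Adgre1 reached at most 0.108 FPKM, the monocyte receptor Fcgr1 at most 0.0687 FPKM and the plasmacytoid dendritic cell marker Siglech at most 0.575 FPKM. The part of these cells in the levels of the members was not tested.

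**Figure D5:**
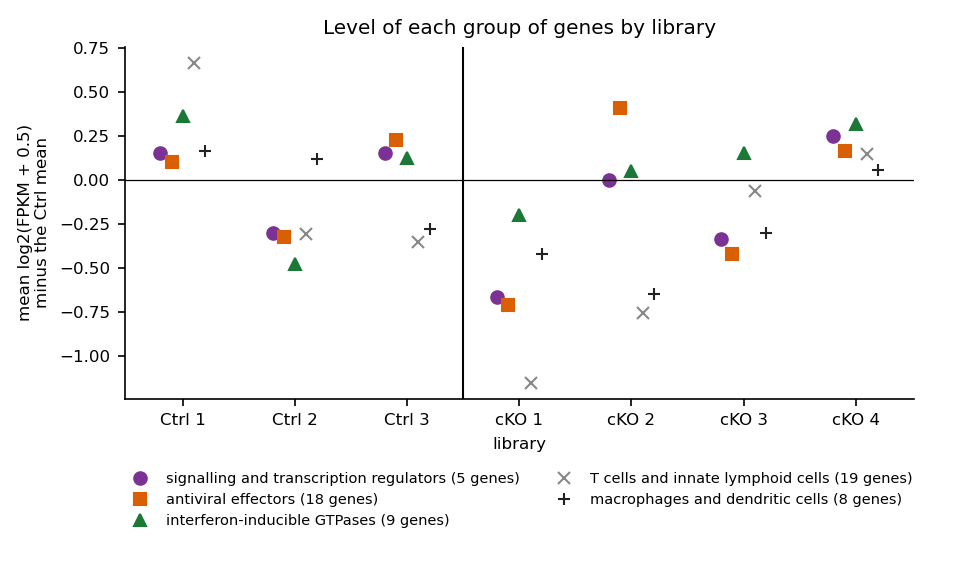
Mean of log2(FPKM + 0.5) minus the Ctrl mean in each library, for regulators, antiviral effectors, GTPases, T cell and innate lymphoid markers, and macrophage and dendritic cell markers (numbers of tested genes in the legend). In cKO replicate 2 the effectors stand at 0.41 and the T cell markers at -0.76.

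No other gene of the pathway was called between the groups. Of 21 interferon ligand genes, 19 had 0 reads in all 7 libraries, so that at their lengths of 570 to 1462 bases levels of up to 0.106 to 0.378 FPKM could not have been seen, counting error only. Ifng, which encodes interferon gamma, had 25 reads in all. It stood at 0.639 FPKM in Ctrl replicate 1, was listed at 0 in Ctrl replicates 2 and 3 and in cKO replicate 1, and lay at 0.147 to 0.228 FPKM in the other cKO libraries. Of the 25 reads 15 were in Ctrl replicate 1, the library in which the T cell markers were also highest. The part of these cells in the Ifng level was not tested. All 6 receptor genes were tested and 0 were called, with differences of 0.13 for Ifnar1 and -0.0070 for Ifnar2 of the type I receptor, 0.053 for Ifngr1 and 0.026 for Ifngr2 of the type II receptor, and 0.12 for Ifnlr1 and 0.15 for Il10rb of the type III receptor. Their limma adjusted p lay between 0.777 and 0.994. Ifngr2 was the most abundant, at 89.2, 93.2 and 111 FPKM in Ctrl and at 84.97, 88.95, 98.1 and 131 FPKM in cKO. Ifngr1 stood at 61.1, 69.98 and 54.3 FPKM in Ctrl and at 63.7, 59.4, 69.9 and 62.5 FPKM in cKO. Il10rb, whose product also serves other cytokines, stood at 55.4, 48.5 and 51.1 FPKM in Ctrl and at 47.4, 47.8, 61.7 and 77.2 FPKM in cKO. The other receptor genes were lower, and in all 6 the groups overlapped. Ifnar1 stood at 7.22, 8.31 and 7.10 FPKM in Ctrl and at 7.003, 7.97, 9.26 and 9.15 FPKM in cKO. Ifnar2 stood at 3.25, 3.21 and 3.02 FPKM in Ctrl and at 2.53, 2.57, 3.95 and 3.75 FPKM in cKO. Ifnlr1, the chain specific to type III interferon, stood at 6.70, 7.09 and 7.73 FPKM in Ctrl and at 6.57, 7.92, 8.41 and 8.52 FPKM in cKO.

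Of 110 tested pathway genes outside the members and including the receptors, 0 were called in limma or with voom, and 5 had an unadjusted limma p under 0.05, 1 higher and 4 lower in cKO, beside the 8.97% of all genes given above. Irf3, the factor that switches on interferon genes after virus sensing, stood at 26.1, 23.5 and 24.2 FPKM in Ctrl and at 20.3, 17.6, 22.4 and 19.6 FPKM in cKO, with no overlap between the groups (log2 difference -0.30, SE 0.11, limma adjusted p = 0.524). Tlr3, a receptor for double-stranded RNA, stood at 4.69, 4.67 and 4.06 FPKM in Ctrl and at 5.28, 6.35, 5.71 and 5.45 FPKM in cKO, again without overlap (log2 difference 0.32, SE 0.11, adjusted p = 0.516). The other 3 were interferon-induced genes with values below those of Ctrl, namely Apol9a with a log2 difference of -0.80, which is larger than that of any member, Ifi35 with -0.47 and Ifi27 with -0.35. Apol9a stood at 33.4, 48.7 and 69.1 FPKM in Ctrl and at 20.05, 23.97, 27.2 and 43.9 FPKM in cKO, and Ifi35 at 107, 78.9 and 116 FPKM in Ctrl and at 65.3, 59.6, 72.5 and 94.3 FPKM in cKO, each with overlap. Apol9b, a close paralogue, had a log2 difference of -0.73 with an unadjusted limma p of 0.0529 (adjusted p = 0.555), and reads of the pair may have been divided between them. Ifi27 stood at 36.4, 31.0 and 34.5 FPKM in Ctrl and at 22.2, 27.9, 26.0 and 30.9 FPKM in cKO, where the highest cKO value lay just under the lowest Ctrl value. Its reads share the limit given for Ifi27l2a. The groups did not overlap in 5 of the 110 genes, against 10.1% of all genes tested. Besides Irf3, Tlr3 and Ifi27 these were Pias1 and Trim12a. The spread between libraries of the same genotype was lower upstream than among the members, with a median standard deviation of 0.195 for receptors, 0.166 for 11 JAK-STAT and IRF signalling genes and 0.200 for 8 sensors and adaptors, against 0.350 for 78 other interferon-induced genes. Irf9, the DNA-binding partner of STAT2, stood at 17.3 to 24.0 FPKM over the 7 libraries.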

How the data were processed

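RNA-seq of 7 libraries (3 Ctrl, 4 cKO) was used as deposited. The authors' deposited table gives 1 FPKM value per gene and library with gene length; reads had been aligned with HISAT2 per the submitters' processing notes, and the sources used here give no version, counter, annotation or strand setting. Columns were tied to libraries by the description label, and replicate numbers are those of the titles. Dividing the product of FPKM and length by the value of 1 read gave whole reads for 100% of values (tolerance 0.01). Pairs of libraries differed by more than sampling noise. Over recovered reads of all genes, the closest were cKO replicates 1 and 2 (chi-square per degree of freedom 21.5) and cKO replicates 3 and 4 (29.7). Between the one pair and the other it was 56.5 to 82.0, so the cKO libraries were not evenly spread. Gene positions in the table are on GRCm39; promoter sequences and their positions are RefSeq's on GRCm38.p6. Coding identity was taken from the longest open reading frames of GENCODE M21 transcripts.

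Genes averaging 0.5 FPKM or more were fitted with limma (version 3.58.1, R 4.3.3; lmFit, eBayes with trend) on log2(FPKM + 0.5), without covariates, and the fit was tested on simulated data. The members and lists were chosen with earlier results of these data known. Named with every library's value were the 14 tested members with the largest absolute difference, the 6 most abundant and any without overlap; of pathway genes, the receptors, Ifng and those with an unadjusted p under 0.05. Genes outside that rule (Stat2, Oas3, Irf9, Apol9b and markers, among others) were chosen after their values were seen. The alternatives are given in the closing section.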

Additional observations from a re-analysis of the deposited data

Results flagged for a closer look

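In 7 of the 35 members, 1 cKO library stood far from the other 3, by a gap of more than 0.829 of the group's range, where chance flags about 1 in 20 groups and the members of a library are not independent. Replicate 2 was far above the others for Mx2 at 2.82 FPKM and for Cxcl10 at 2.32 FPKM. Replicate 4 was far above the others for Zbp1, a sensor of Z-form nucleic acids, at 25.9 FPKM, for Gbp2 at 3.34 FPKM and for Gbp5 at 0.951 FPKM. Replicate 1 was far below the others for Gbp3 at 0.585 FPKM and for Gbp7 at 1.502 FPKM.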

How the results depend on the processing

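No member and no other pathway gene was called under any of the 18 alternatives. These were pseudocounts of 0.1 and 1, no filter, a mean of at least 1 FPKM, TPM, quantile normalization, median-of-ratios rescaling, robust eBayes, array weights, voom, a replicate block and leaving out each library. Leaving out a library moved the number of members below 0 between 11 and 26, the number without overlap between 0 and 4, the median difference between -0.32 and 0.10, and the number at an unadjusted p under 0.05 between 0 and 3. The members with a spread above the median of all genes were 29 of 29 at the stricter filter and 35 of 35 with no filter or with voom; the lowest share was 30 of 33, under the block and without Ctrl replicate 2. Under TPM the median of all genes moved from -0.0077 to 0.070 and that of the members to 0.0027. The number of members below 0 was 16 under TPM, 17 with array weights and 26 with the block.

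Among the 16 members named with every library's value and the 6 receptor genes, the sign turned for 5 members and 3 receptor genes. The signs of the other members were not followed singly. Some of these turned too, as the count of members below 0 went from 21 to 11 without cKO replicate 1. Over the fits that left out a library, the difference ran from -0.47 to 0.088 for Usp18, from -0.43 to 0.20 for Ifit1, from -0.66 to 0.044 for Ifit3, from -0.37 to 0.12 for Oasl2, from -0.22 to 0.50 for Oas2, from -0.104 to 0.081 for Ifnar2, from -0.036 to 0.145 for Ifngr1 and from -0.11 to 0.122 for Ifngr2. Without cKO replicate 1 the difference turned positive, among the genes followed, for Usp18, Ifit1, Ifit3, Oasl2 and Ifnar2. It turned without cKO replicate 2 for Oas2 and Ifnar2, without cKO replicate 3 or Ctrl replicate 3 for Ifit1, without cKO replicate 4 for Ifngr2, without Ctrl replicate 1 or 2 for Ifnar2 and Ifngr2, and without Ctrl replicate 3 for Oasl2 and Ifngr1. Array weights gave 0.12 for Ifit1, -0.029 for Ifngr1 and -0.029 for Ifngr2, and TPM gave 0.068 for Ifnar2. The cause was not tested.

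With the replicate number as a block, Ifngr2 stood at -0.11 and Stk24 at -2.44 with an adjusted p of 0.137, and 0 of all genes were called, against 4 without it. The numbers did not pair the libraries: deviations of same-numbered libraries correlated at 0.115, -0.087 and -0.129 across genes, and Ctrl replicate 2 was closest to cKO replicate 3. Depth limits Cxcl9, Cxcl10, Gbp3, Gbp5, Iigp1, Ifi27l2a, Ifit2 and Ifit3b, each read under 100 times in every library.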
